A study of Mus musculus with 4 samples.

Results

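Peaks of the RNA-binding protein MSI2 were described over 10 mouse genes of goblet cells and the mucus layer, taken as a named list: Muc2, Muc13, Fcgbp, Zg16, Clca1, Clca4b, Tff3, Agr2, Dmbt1 and Spdef. A peak was counted for a gene when at least 1 base of it fell in the gene span on mm10. Of the 21900 protein-coding genes in the RefSeq table these are 10, and 8 of the 10 held peaks. They took 68 of 12061 peaks in the wild-type list and 81 of 16939 in the transgenic list.

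The data are CLIP-seq libraries, in which RNA is joined to protein by ultraviolet light, precipitated with an antibody to MSI2 and sequenced. Intestinal epithelial cells on a C57BL6 background were used, in 2 WT libraries and 2 libraries from TRE-Msi2 mice, whose Msi2 transgene is switched on by doxycycline. The labels' protocols give crypts as the WT material, with no doxycycline recorded, and whole epithelium from mice on doxycycline for 24 hours as the TRE-Msi2 material. Genotype, tissue fraction and treatment therefore cannot be told apart, and the authors deposited 1 merged peak list per genotype, so values come without a replicate error, and differences between the lists were not tested. The sources used here do not give the driver of the inducible transgene or the number of mice.

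Goblet cells secrete the mucus gel that separates the intestinal epithelium from bacteria. The gel is built on the mucin Muc2, which is folded in the endoplasmic reticulum with the help of the disulfide isomerase Agr2 and leaves the cell packed with Fcgbp, Zg16, Clca1 and Tff3. Spdef is a transcription factor of goblet cell maturation. Muc13 is a mucin anchored in the apical membrane, and is also made by absorptive cells. Musashi proteins such as MSI2 bind single-stranded RNA that holds the letters UAG and act on the stability and translation of messenger RNA.

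The same 8 genes held peaks in both lists, and Tff3 and Spdef held none in either. Of all protein-coding genes 20.3% held a WT peak, 24.9% a TRE-Msi2 peak and 19.1% a peak in both. RNA abundance was not measured, so a peak can reflect how much of a transcript was present as well as how it was bound, and fewer goblet cells cannot be told apart from less bound RNA per cell. All 68 WT and 81 TRE-Msi2 peaks lay on the strand of their gene. That strand came from the RefSeq promoter table for Muc2, Muc13, Fcgbp, Clca4b and Agr2, and from the peaks themselves for Zg16, Clca1 and Dmbt1, where it is no check.

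Each peak carries a score given by the authors. Among single 200-nt bins it was nearly always a whole number, as a count of reads would be. The median score over the whole list was 19 for WT peaks and 24.7 for TRE-Msi2 peaks. The depth of the libraries is not known, so scores are ranked within a list. Over the 10 genes the WT scores ran from 13.3 to 77.3 with a median of 26.5, and the TRE-Msi2 scores from 15.7 to 111.8 with a median of 31.5. At or above the list median lay 56 of the 68 WT peaks, or 82.4% (exact Clopper-Pearson 95% interval 71.2% to 90.5%), against 52.0% of all WT peaks. In the TRE-Msi2 list 59 of 81 did, or 72.8% (61.8% to 82.1%), against 50.1% of all. These intervals cover counting error alone and treat peaks of a gene as independent, which they are not.

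The high end of the lists held more of these peaks than its size. In the top 10% of scores lay 27 of 68 WT peaks, or 39.7%, against 10.2% of all peaks, and 34 of 81 TRE-Msi2 peaks, or 42.0%, against 9.99%. In the top 1% lay 6 WT peaks, against 1.01% of all, and 11 TRE-Msi2 peaks, against 1.00%. Of the 6, Muc13 held 4, Zg16 held 1 and Clca4b held 1. Of the 11, Muc13 held 7 and Clca4b held 4. The top 1% thus came from 3 of the 8 genes in WT and from 2 in TRE-Msi2. High scores were not particular to mucus genes. Each of 8 absorptive enterocyte markers had its best peak at percentile 93.2 or above by score in at least 1 list. The 10 genes were chosen with earlier results of these data known, so these shares are a description.

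**Figure D1:**
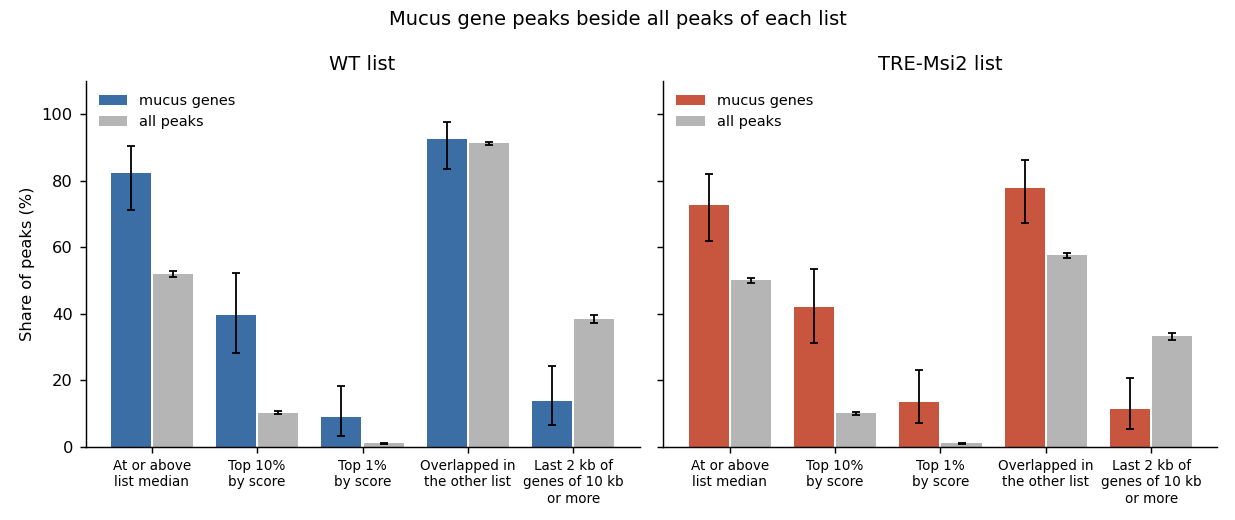
Share of peaks (%, vertical axis) over the 10 mucus genes (coloured) and over the whole list (grey), for WT on the left and TRE-Msi2 on the right; bars start at 0 and error lines are exact 95% binomial intervals for counting error. The share in the top 10% by score was 39.7% in WT and 42.0% in TRE-Msi2, against 10.2% and 9.99% of all peaks. For the last 2 kb, only peaks of genes of at least 10 kb are counted, in colour and in grey. That share was lower over the mucus genes in both lists, and was not matched for peaks per gene.

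Muc2, the gel-forming mucin of the intestine, spans chr7:141690340-141754691 on mm10 (64.4 kb) and held 7 peaks in each list. From start to end of the gene the WT scores were 18, 20, 24, 15, 31, 17 and 31. The TRE-Msi2 scores were 21, 35, 28, 37, 27, 20 and 46.5. Of the 7 in each list 6 overlapped, and the unmatched ones were the WT peak nearest the start (score 18) and a TRE-Msi2 peak of score 20. The peaks stood in a group near the start and a group near the end. Between them, 41000 nt without a peak in either list crossed the middle of the gene. The mucin carries long repeated domains in the middle of its chain. The gene table holds no exons, so whether these repeats lie in the stretch without peaks was not tested. How the authors treated reads that match several places is not given in the sources used here. A stretch without peaks is therefore not shown to be unbound. The highest Muc2 score in TRE-Msi2, 46.5, ranked 645 of 16939 and lay at chr7:141754296-141754695, over the last base of the gene. In WT this peak tied at 31 with chr7:141745896-141746095, at rank 990 of 12061.

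Muc13, the membrane mucin, spans chr16:33794037-33819929 (25.9 kb) and held 10 WT and 13 TRE-Msi2 peaks. The WT scores along the gene were 35, 70.2, 39, 68, 46, 77, 65, 34, 38 and 51.7. Every one of these 10 was in the upper 50% of the WT list. The TRE-Msi2 scores were 60, 23, 111.8, 46.3, 21.5, 108, 73, 99.5, 91.5, 69, 25, 49.5 and 65.9. The 3 TRE-Msi2 peaks with no WT counterpart were the 3 lowest, at 21.5, 23 and 25.

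The best Muc13 peak ranked 37 in WT, at chr16:33807715-33808114, and 9 in TRE-Msi2, at chr16:33798915-33799714. By top score Muc13 stood at rank 29 of the 4449 protein-coding genes with a WT peak and at rank 5 of the 5448 with a TRE-Msi2 peak. The TRE-Msi2 peak at rank 9 joins 4 bins and has a deposited p of 0.2. Scores of such peaks are not on the footing of single bins, as given below for Zg16. The best single bin of Muc13 in TRE-Msi2, with 108, ranked 11. At chr16:33804515-33804714, a single bin, the score was 68 in WT (exact Poisson 95% interval, if scores are reads, 52.8 to 86.2) and 108 in TRE-Msi2 (88.6 to 130). Peaks were spread over the whole gene, with no gap above 4200 nt in WT or 3200 nt in TRE-Msi2. They covered 4200 nt in WT and 5400 nt in TRE-Msi2, and the widest, at the end of the gene, was 1200 and 1400 nt. Muc2, by contrast, was covered over 1800 nt in each list in a longer span.

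Muc13 and Clca4b also held a peak in the first 50 bases of a RefSeq transcript, in both lists. Of the 5 members with peaks and a start in the RefSeq promoter table (build GRCm38.p6), 2 did. Of all protein-coding genes with a peak and a listed start, 47 of 3548 (1.32%) did in WT and 72 of 4373 (1.65%) in TRE-Msi2. These shares were not matched for peaks per gene. Muc13 held 10 WT and 13 TRE-Msi2 peaks and Clca4b 12 and 15, where the median over protein-coding genes with a peak was 1. The RNA inside these peaks, up to 30 bases from RefSeq, is shown because it is the only sequence within these genes' peaks that was used here. It covers a small stretch of each peak. The Clca4b stretch is bases 1 to 30 of the transcript (chr3:144932500-144932529, minus strand) and the Muc13 stretch is bases 27 to 50 (chr16:33794515-33794538, plus strand). The letters UAG would stand in capitals, and neither stretch has them.
Clca4b: aaagagaggccucugggugaccaggcugga
Muc13: agagcagcuaccaugaaaggcuuc
The first 50 transcribed bases of these starts held UAG 0 times on the transcribed strand, the one searched. Of the 21263 such windows in the RefSeq promoter table, from 17492 genes, 30.9% held it. The peaks are wider than these stretches, so nothing follows from this about where MSI2 was bound. The Clca4b peak, chr3:144932237-144932636, scored 27 in WT and 36.5 in TRE-Msi2. The Muc13 peak, chr16:33794515-33794714, scored 35 and 60, and it also lay over the noncoding RNA gene Gm15658.

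Fcgbp, a large secreted protein that binds the Fc part of IgG and is bound into the mucus gel, spans chr7:28071236-28120864 (49.6 kb). It held 11 WT peaks with scores from 18 to 35.7 and a median of 24.7, and 14 TRE-Msi2 peaks with scores from 20 to 55.3 and a median of 27. All 11 WT peaks had a TRE-Msi2 counterpart. In both lists the best peak was the last, chr7:28120382-28120981, at rank 597 in WT (score 35.7) and 301 in TRE-Msi2 (55.3). A pseudogene, Gm21925, overlaps the second part of the gene, and 7 of the WT and 8 of the TRE-Msi2 peaks lay over both spans. These peaks cannot be given to Fcgbp alone. The 4 WT and 6 TRE-Msi2 peaks outside the pseudogene still placed Fcgbp in both lists.

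Zg16, a lectin of the mucus layer that binds cell walls of Gram-positive bacteria, is the shortest of the 10 spans at 2.52 kb (chr7:127050156-127052675). It held 2 peaks in each list, at the same positions. At chr7:127050087-127050686, over the last base of the gene, the score was 77.3 in WT, the highest of all mucus gene peaks in that list at rank 36, and 62.8 in TRE-Msi2, at rank 191. At chr7:127051487-127051886 the scores were 17 and 19.3. Per kb of span Zg16 held 0.794 peaks, the most of the 8 genes, at rank 86 of all protein-coding genes in WT and 104 in TRE-Msi2. The medians over genes with a peak were 0.0497 and 0.0598 peaks per kb.

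The lower TRE-Msi2 rank of Zg16 came with a difference in what its score averages. The WT peak has a p of 1.49e-09, and its score times its 3 bins is a whole number. The TRE-Msi2 peak has a p of 0.4 and a score that is a whole number when multiplied by 5, which is the reading of a mean over 5 values of which 2 had a p near 1. Over the whole WT list, 84.2% of the 2566 joined peaks with a p above 0.05 could be read as a mean over their bins plus such extra values. In the TRE-Msi2 list 47.0% of 4774 could. Among mucus gene peaks 13 of 68 WT and 16 of 81 TRE-Msi2 ones were joined peaks with a p above 0.05. Scores of such peaks are therefore not on the footing of single bins, and Zg16, with no single-bin peak in either list, allows no comparison between them. The part of these extra values in its ranks was not tested.

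**Figure D2:**
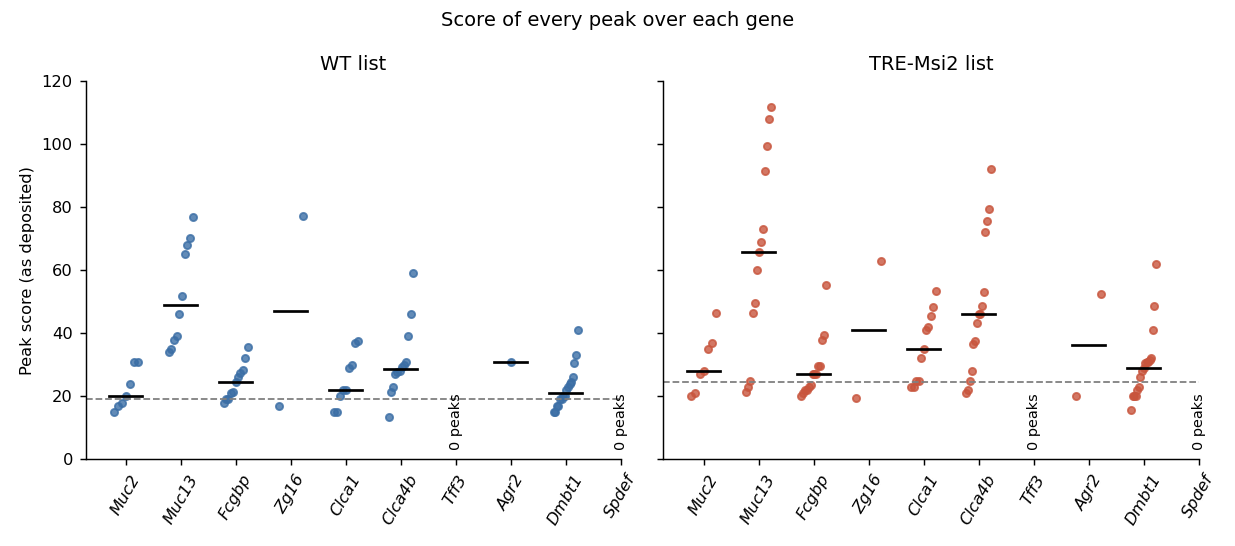
Score of each peak (as deposited, vertical axis from 0) for each of the 10 genes, WT on the left and TRE-Msi2 on the right; each point is a peak, black bars are gene medians and the dashed line is the median of the whole list (19 and 24.7). Muc13 had the highest median in both lists, 48.9 and 65.9, and Tff3 and Spdef had 0 peaks.

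The CLCA proteins are secreted metalloproteases or their relatives, encoded side by side on chromosome 3, and Clca1 is the one known to cut and loosen intestinal mucus. Clca1 (chr3:145004537-145032776, 28.2 kb) held 9 WT and 11 TRE-Msi2 peaks. Its WT scores ran from 15 to 37.5 with a median of 22, and its TRE-Msi2 scores from 23 to 53.5 with a median of 35. All 9 WT peaks had a counterpart, and the 2 unmatched TRE-Msi2 peaks scored 23 and 25. Its best WT peak was the last, chr3:145004437-145005036, at rank 457 with a score of 37.5. In TRE-Msi2 the best was chr3:145008837-145009236, at rank 342, whose centre is 4499 nt before the end. These 2 peaks were close in both lists. In WT the latter scored 37, at rank 476, and in TRE-Msi2 the last peak scored 48.25, at rank 527. The last peak is a joined peak with a p of 0.25 in both lists, so a change of best site is not shown.

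Clca4b (chr3:144910921-144932529, 21.6 kb) was the more densely covered neighbour, with 12 WT and 15 TRE-Msi2 peaks. WT scores ran from 13.3 to 59 with a median of 28.7, and TRE-Msi2 scores from 21 to 92 with a median of 46. The best peak was the same single bin in both lists, chr3:144913237-144913436, whose score was 59 in WT (Poisson 95% interval 44.9 to 76.1) and 92 in TRE-Msi2 (74.2 to 113). It ranked 89 of 12061 and 41 of 16939. All 12 WT peaks were matched, and the 3 unmatched TRE-Msi2 peaks scored 21, 22 and 28. Peaks covered 4800 nt in WT and 6200 nt in TRE-Msi2, from the first bases of the gene to beyond its annotated end. The last peak, 1400 nt wide in WT and 1600 nt in TRE-Msi2, began at position 144910237 and 144910037, outside the span. CLCA genes are similar copies, so reads may be shared between Clca4b and its neighbours.

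Agr2, the disulfide isomerase of the mucin-folding endoplasmic reticulum, spans chr12:35992925-36004081 (11.2 kb). It held 1 WT and 2 TRE-Msi2 peaks. The shared one, chr12:36003814-36004213, covered the last base of the gene and scored 31 in WT and 52.3 in TRE-Msi2, at ranks 990 and 373. The TRE-Msi2 peak upstream of it scored 20, the lowest score of any single-bin peak in that list. The shared peak is a joined peak with a p of 0.333 in both lists.

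Tff3, a trefoil peptide of mucosal repair (chr17:31125306-31129611, 4.31 kb), and Spdef (chr17:27714446-27731003, 16.6 kb) held 0 peaks. The nearest peak to Spdef lay 20853 nt away and the nearest to Tff3 lay 198445 nt away, in both lists. A gene of 0 peaks may have had reads below the lowest single-bin score, which was 15 in WT and 20 in TRE-Msi2.

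Dmbt1, a secreted scavenger receptor that binds bacteria and mucosal proteins, is the longest span at 89.6 kb (chr7:131032057-131121628). It held the most peaks of the 10 genes, 16 in WT and 17 in TRE-Msi2, at ranks 5 and 8 among all protein-coding genes. Most were single bins, 13 and 12, and most scores were moderate, with a range of 15 to 41 and a median of 21 in WT, and 15.7 to 62 with a median of 29 in TRE-Msi2. The best peak in both lists was the last, chr7:131121087-131121686, with 41 in WT (rank 335) and 62 in TRE-Msi2 (rank 195). The first peak was centred 16129 nt from the gene start in WT and 31329 nt in TRE-Msi2.

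By count, Dmbt1 held the most WT peaks without a counterpart. Of its peaks 12 in each list overlapped, 4 of 16 WT peaks had no TRE-Msi2 counterpart, and 5 of 17 TRE-Msi2 peaks had no WT counterpart. Over the whole lists 8.69% of WT and 42.4% of TRE-Msi2 peaks had none, so the WT share of Dmbt1 was above that of all peaks and the TRE-Msi2 share below it. The unmatched WT scores were 15, 17, 15 and 17. The unmatched TRE-Msi2 scores were 23, 22, 20, 20 and 20. All 9 were single bins below the median of their list, close to the lowest single-bin scores. The protein is made of repeated domains of similar sequence, and how reads matching several repeats were placed is not given in the sources used here.

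**Figure D3:**
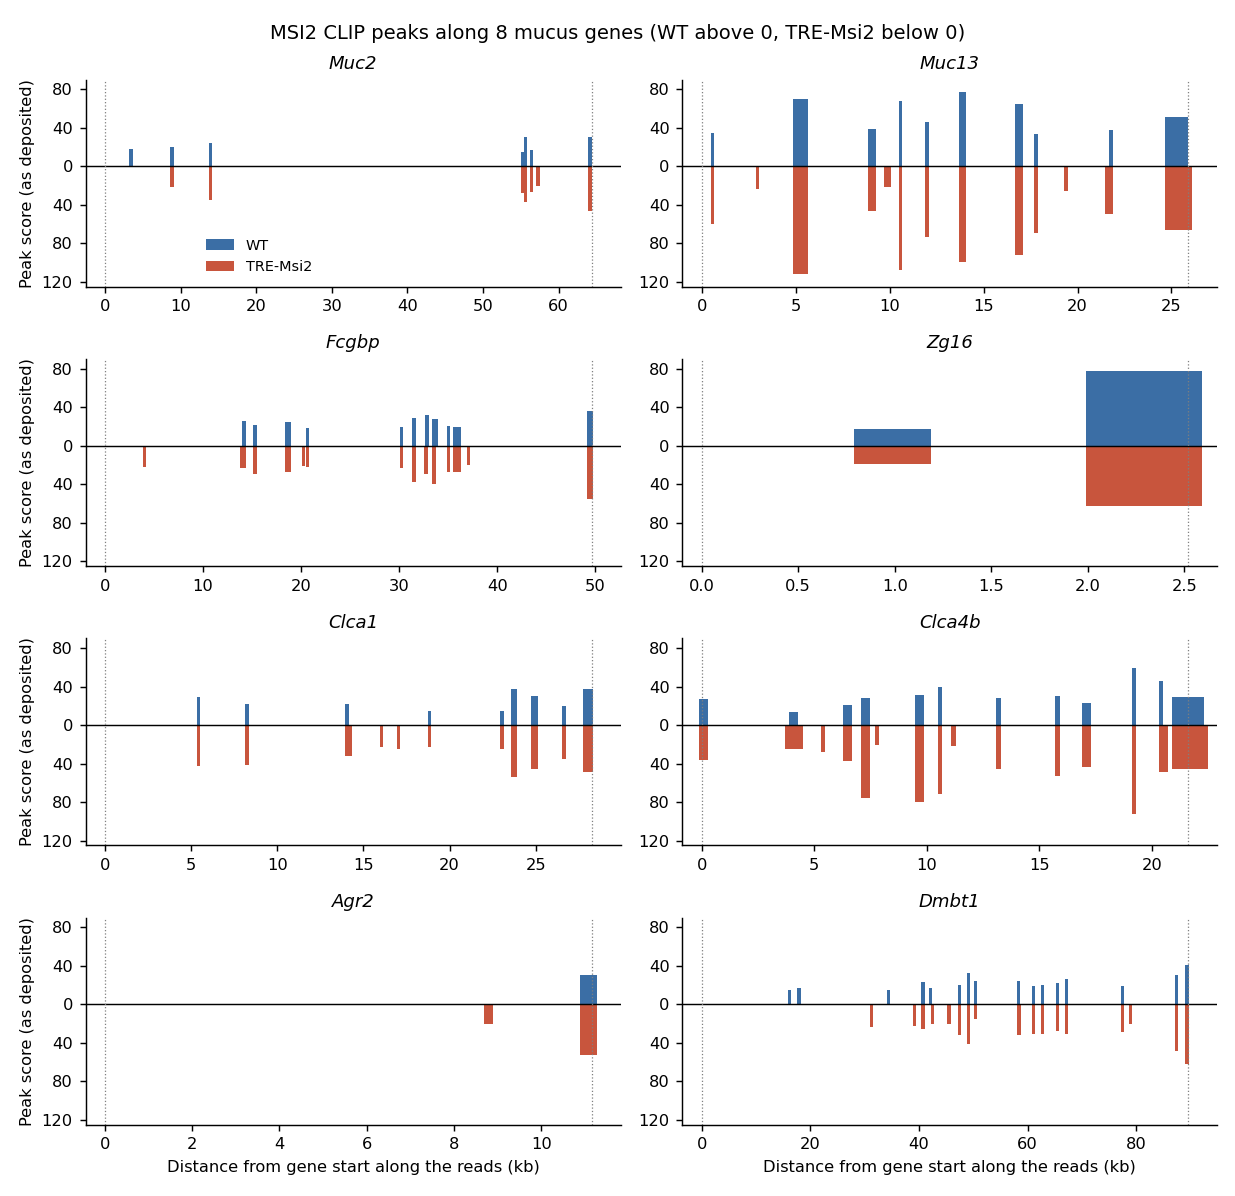
Peaks along the 8 genes that held any, by distance from the gene start in the direction of the reads (kb, horizontal axis) and score (as deposited, vertical axis), with WT above 0 and TRE-Msi2 below 0; bars are drawn at peak width or a minimum width for sight, and dotted lines mark the gene ends. Muc13 and Clca4b were covered along their length, Muc2 had 41000 nt without a peak, and the last peak of each gene lay at its end.

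Of the 8 genes with peaks, 7 in WT and 8 in TRE-Msi2 held a peak over the very last base of the annotated span. The exception was Muc13 in WT, whose last peak ended at position 33819914, short of the gene end at 33819929. Over all protein-coding genes with peaks 12.1% in WT and 14.9% in TRE-Msi2 held one there. The share was higher among genes with a peak in the top 10% of scores, at 28.1% and 27.6%, and among genes with at least 5 peaks, at 24.5% and 22.1%. All 8 mucus genes held a top 10% peak in each list, where 726 of 4121 protein-coding genes did in WT and 939 of 5032 in TRE-Msi2. Of the 6 mucus genes with at least 5 peaks, 5 in WT and 6 in TRE-Msi2 had a peak over the last base. All these end peaks of the mucus genes were joined peaks. Without joined peaks with a p above 0.05, 4 of 7 mucus genes in WT and 3 of 7 in TRE-Msi2 held a peak over the last base. Of protein-coding genes counted as above, 9.41% of 3751 and 8.94% of 4474 did.

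Most peaks of these genes were centred further from the end. In the 7 genes of at least 10 kb with peaks, 9 of 66 WT peaks, or 13.6% (6.43% to 24.3%), were centred in the last 2 kb. Over all protein-coding genes of that length, for peaks touching a single protein-coding span, the share was 38.4%. In TRE-Msi2 it was 9 of 79, or 11.4% (5.34% to 20.5%), against 33.2%. The other peaks lay upstream in the span. These shares were not matched for the number of peaks per gene. Over protein-coding genes with a peak the median was 1 peak in each list. A gene with many peaks has a low share from 1 end peak. How far this sets the shares apart was not tested. At least 10 peaks were held by 4 of the 10 genes in WT (Muc13, Fcgbp, Clca4b and Dmbt1), against 0.160% of protein-coding genes, and by 5 in TRE-Msi2, with Clca1, against 0.352%. The RefSeq table gives no exons, so peaks in exons and introns were not separated.

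Between the lists, 63 of 68 WT peaks were overlapped by a TRE-Msi2 peak on the same strand, 92.6% (83.7% to 97.6%), where 91.3% of all WT peaks were. In the other direction 63 of 81 were, 77.8% (67.2% to 86.3%), against 57.6% of all TRE-Msi2 peaks. The 5 unmatched WT peaks lay in Muc2 and Dmbt1 and scored 15 to 18, against a median of 27.7 for the matched ones. The 18 unmatched TRE-Msi2 peaks lay in 7 genes and scored 20 to 28, against a matched median of 39.3. Of the 63 pairs, 52 had the same start and end.

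The order of matched scores within a gene was compared in the 6 mucus genes with at least 6 pairs, and rho was above the median of all such genes in 5 of them. Spearman's rho between WT and TRE-Msi2 scores was 0.95 over 9 pairs in Clca1, 0.81 over 12 in Clca4b, 0.78 over 11 in Fcgbp, 0.77 over 10 in Muc13, 0.75 over 6 in Muc2 and 0.44 over 12 in Dmbt1. Over the 157 protein-coding genes with at least 6 matched WT peaks the median was 0.52, with quartiles of 0.18 and 0.71. These values describe the lists: the points share a transcript, a pair of pooled lists and the same bins. The pairs also include joined peaks with a p above 0.05, whose scores are not on the footing of single bins. In Dmbt1 the pair at chr7:131082287-131082686 scored 24.5 in WT and 15.7 in TRE-Msi2, where it is such a peak. The part of joined peaks in rho, and so in the place of Dmbt1 below the median, was not tested.

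Single bins called in both lists were set side by side, with their whole-number scores treated as read counts. What the score counts is not stated in the sources used here, so the counting intervals hold only if scores are reads. Over all genes 3796 such bins had a median TRE-Msi2 to WT ratio of 1.52, and 1.33 in the 873 bins with a WT score of at least 25, where the calling threshold cuts fewer values. For Muc13, 4 bins had summed scores of 183 in WT and 310 in TRE-Msi2, a ratio of 1.69 (exact 95% counting interval 1.41 to 2.04). For Clca4b, 4 bins had summed scores of 156 and 263, a ratio of 1.69 (1.38 to 2.07). All 8 of these bins had a WT score of at least 25, where the ratio of sums over all genes was 1.34 and the upper quartile of ratios was 1.56. Of the 8, all 4 of Muc13 and 3 of Clca4b were above that quartile. The comparison is not like for like. The 873 bins were picked by a high WT score, which by itself can lower a ratio. Their mean WT score was also below that of these 8 bins.

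The other genes gave lower or less certain ratios. Clca1 stood at 1.64 (1.28 to 2.13) over 5 bins, Dmbt1 at 1.40 (1.13 to 1.73) over 7, Muc2 at 1.36 (1.02 to 1.83) over 4 and Fcgbp at 1.24 (0.866 to 1.79) over 3. The intervals of these 4 genes include the all-gene median of 1.52. Those of Muc13 and Clca4b leave out 1.34, but not 1.52, and they hold no spread between mice. Tissue fraction differed with genotype and doxycycline is recorded for TRE-Msi2 mice alone, and their part in these ratios cannot be told apart.

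**Figure D4:**
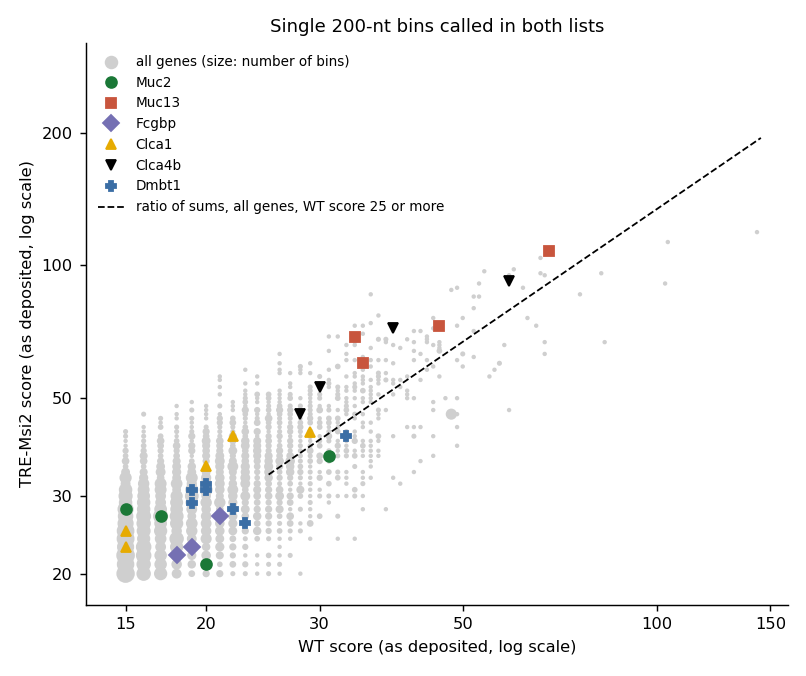
Scores of single 200-nt bins called in both lists, WT (horizontal, log scale) against TRE-Msi2 (vertical, log scale); grey points are all genes, coloured marks are the 27 mucus gene bins, and the dashed line is the all-gene ratio of sums of 1.34 for WT scores of at least 25. All 4 Muc13 and all 4 Clca4b bins lie above the line.

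Other genes of the mucus pathway were taken from lists by role. Of 22 further mucins and mucus proteins in the gene table, 8 held a WT peak and 9 a TRE-Msi2 peak, with 7 in both. Of all protein-coding genes 20.3%, 24.9% and 19.1% did. Clca3a2 and the pseudogene Clca4c-ps held 1 TRE-Msi2 peak each and no WT peak, and the membrane mucin Muc4 held 2 WT peaks, the higher with a score of 16, and no TRE-Msi2 peak. Ranked by the higher of the top scores in either list, Pigr stood first. It encodes the receptor that carries IgA across the epithelium, and had 10 peaks per list, the highest at 70.5 in WT (rank 49) and at 96 in TRE-Msi2 (rank 30). Next were the CLCA genes Clca4a, with 9 and 12 peaks and top scores of 50 and 76, and Clca3b, with 3 and 5 peaks and top scores of 46.9 and 68.8. In WT alone the lectin gene Itln1, with 48 (rank 194), stood above Clca3b (rank 224). Of the Clca4a peaks 1 in WT and 3 in TRE-Msi2 also touched another span. Among the further mucins, Muc3 held 4 WT and 5 TRE-Msi2 peaks, with top scores of 36.4 (rank 536) and 60 (rank 216). The mucins of the stomach and airways Muc5ac, Muc5b and Muc6 held 0 peaks, as did Muc1, Muc3a, Muc16 and Muc20.

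Of 21 genes of mucin glycosylation and secretion, 9 held peaks in both lists and Slc12a8 in TRE-Msi2 alone, with a score of 20, where 19.1% of all protein-coding genes held peaks in both. The highest WT top score was 33 in the protease gene Capn9, which had 34 in TRE-Msi2. The highest TRE-Msi2 top score was 39 in Galnt7, a GalNAc transferase of O-glycan synthesis, which had 29 in WT. Galnt4, of the same enzyme family, had top scores of 24 and 37, but its 2 WT peaks and its 1 TRE-Msi2 peak also touched another span. Of 10 transcription factors of goblet cells or the gut epithelium, 3 held peaks in both lists, namely Klf4, Xbp1 and Hnf4a, against 19.1% of all protein-coding genes. Their top scores were 19, 26 and 25.4 in WT and 25.6, 25 and 33.4 in TRE-Msi2. Atoh1, the factor that starts the secretory lineage, held 0 peaks, as did Spdef.

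Markers of other cells were looked up in the same way. All 8 absorptive enterocyte and all 6 Paneth cell genes held peaks in both lists, and 5 of 8 general epithelial genes in WT and 6 in TRE-Msi2, with Cdx1 and Cdx2 at 0. The peaks of the enterocyte gene Fabp2, 4 in each list, and of the Paneth cell gene Mmp7, 1 in each, all touched another span as well. Of 6 immune genes 3 held peaks in each list (Cd74, Jchain and Lyz2), with Ptprc, Cd3e and Cd79a at 0. Of the Cd74 peaks 1 in each list also touched another span. Lyz2 lies beside the Paneth cell gene Lyz1, and whether reads were shared between them was not tested. None of 6 stromal, 5 stomach or 5 exocrine pancreas genes held a peak. Over all protein-coding genes the shares were 20.3% with a WT peak, 24.9% with a TRE-Msi2 peak and 19.1% with both. How far the share of each cell type differed between crypts and total epithelium was not tested.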

How the data were processed

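Peak lists were deposited by the authors, 1 per genotype, each merging 2 libraries after removal of duplicate reads and peak calling with Piranha, as their names say. Per the submitters' processing notes, cutadapt and TopHat are named, with mm9 and mm10 as builds; no versions are given there. Largest coordinates fit mm10. A deposited cell joins a score and a p-value, and the score was the first number. Gene spans came from RefSeq GRCm38.p6, whose table holds no exons, and starts from the RefSeq promoter table. Overlaps, ranks and intervals were computed in Python 3.11.15 with pandas 2.3.3 and scipy 1.17.1, and tested on simulated peaks. Peaks were shared when at least 1 base overlapped on the same strand. No test across genotypes was possible with 1 pooled list each, and the depth per library is unknown. The planned motif share in peaks needed a genome, which was not used here. The symbol Muc17 was not in the gene table, so no gene was looked up under that name. The members and lists were chosen with earlier results of these data known. All 10 members are named, and of the further mucus genes the 3 with the highest score; other names were chosen after their values were seen.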

Additional observations from a re-analysis of the deposited data

How the results depend on the processing

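Of 94 values recomputed under alternatives, 80 stayed within 1.5 times the reported count, among them all those with the peak centre in the gene, the transcribed strand, peaks over 1 span, the upper 50% by score, a TRE-Msi2 list cut by score to as many peaks as WT, or an overlap of 50%. Some of the 80 could not move. All member peaks already lay on the strand of their gene, which for Zg16, Clca1 and Dmbt1 was taken from the peaks. Counts in the upper 50% cannot change under that filter, nor counts of WT peaks alone under a shorter TRE-Msi2 list. The 14 values that moved came from 2 alternatives chosen after seeing the data, both of which remove joined peaks. Without joined peaks with a p above 0.05, 7 WT and 5 TRE-Msi2 peaks were centred in the last 2 kb, where 11 of each were counted, Zg16 included, and 4 members in WT and 3 in TRE-Msi2 held a peak over the last base. With single-bin peaks alone, 38 WT and 44 TRE-Msi2 peaks remained over the members, 27 in each list overlapped, 28 and 26 were in the upper 50% by score, 2 and 1 lay in the last 2 kb, and 0 members held a peak over the last base in either list. By these 2 alternatives members with peaks in both lists numbered 6. No paired analysis was possible because the libraries of a genotype were merged before deposit, and for that reason no library could be left out. Scores near the lowest single-bin value limit which weak peaks are seen.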
